A study of Mus musculus with 6 samples.

Results

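The 40 genes described here encode proteins that copy DNA in S phase. They were taken from a list by gene symbol, a rule that uses no expression value. Earlier results of these data were, however, known when the list was chosen. All 40 were found by Ensembl identifier among the 24965 genes of the deposited expression table. RNA-seq was performed on donor HSPCs (hematopoietic stem and progenitor cells) collected from the bone marrow of recipient mice at 6 h after bone marrow transplantation (BMT), with 3 WT and 3 Hemgn-/- libraries. Hemgn encodes hemogen, a nuclear regulator of blood cell development, and the comparison asks what its loss changes in donor cells exposed to the stress of transplantation. WT donors and Hemgn-/- donors were young adult C57BL/6 (CD45.2) mice of both sexes. The Hemgn-/- line carries a whole-body disruption made with zinc finger nucleases, so donor cells of every type carry it, and the gene is frameshifted and can still be transcribed. In both groups the recipients were CD45.1 mice irradiated with 9 Gy in a split dose, and the donor marrow was injected without sorting. The methods of the study and its design text describe the sorted donor cells as lineage-negative cells with Sca-1 and c-Kit on their surface, but c-Kit is missing from the labels. The sources also differ on the library kit and on the injection route. The methods name 3 biological replicates per group without saying whether a replicate was 1 recipient or a pool, so p-values measure the spread between these libraries.

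Copying of the genome starts in G1, when Cdc6 and its partners load the minichromosome maintenance (Mcm) helicase onto origins. In S phase, Cdc45 and the GINS complex switch the helicase on, polymerases and the sliding clamp Pcna build the new strands, ribonucleotide reductase supplies deoxynucleotides, and chaperones pack the copies into chromatin. Most of these genes are transcribed under E2F factors at the entry to S phase, so their transcripts are common in cycling progenitors and scarce in quiescent stem cells and in mature blood cells. Genes of G2 and mitosis are controlled mainly through other promoter elements, the CHR and the CCAAT box, and peak later in the cycle.

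The promoter letters behind this division of labour are shown first because they are what many of the members share and what the rule did not use. RefSeq promoter windows (GRCm38.p6, from 250 bases before to 50 bases after the annotated start) were given for 32 of the 40 members, and those of Mcm4, Gins2, Gmnn, Rfc2, Dscc1, Tipin, Exo1 and Usp1 were not among them. The E2F motif was searched on both strands as the words TTTCCCGC, TTTCGCGC, TTTGCCGC and TTTGGCGC, the CCAAT box as CCAAT and the CHR as TTTGAA. E2F words were found in the windows of 12 of the 32 members (37.5%). This compares with 704 of 27025 genes with a window (2.6%) and 418 of the 8856 tested genes that had a window (4.72%). For genes with several annotated starts a match in any window counted. A match from each of these members but Mcm6 is printed 5′ to 3′ along the gene, with 10 flanking bases on either side and the E2F word, or its reverse complement, in capitals.
Cdc6 (chr11:98908003-98908030, plus strand): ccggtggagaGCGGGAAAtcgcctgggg
Dtl (chr1:191575535-191575562, minus strand): gtgacgtcagTTTGGCGCggagtttggc
Mcm3 (chr1:20820276-20820303, minus strand): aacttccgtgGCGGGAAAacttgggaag
Mcm5 (chr8:75109346-75109373, plus strand): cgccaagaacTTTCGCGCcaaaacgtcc
Mcm7 (chr5:138172031-138172058, minus strand): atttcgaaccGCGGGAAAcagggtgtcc
Pola1 (chrX:93632276-93632303, minus strand): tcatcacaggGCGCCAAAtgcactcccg
Lig1 (chr7:13278842-13278869, plus strand): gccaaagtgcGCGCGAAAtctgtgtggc
Hells (chr19:38930918-38930945, plus strand): accaccgggtTTTCCCGCgaaagagaag
Uhrf1 (chr17:56304118-56304145, plus strand): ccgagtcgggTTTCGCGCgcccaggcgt
Cdca7 (chr2:72476138-72476165, plus strand): gcgtcccggcGCGGGAAAgccggtggcc
Clspn (chr4:126556991-126557018, plus strand): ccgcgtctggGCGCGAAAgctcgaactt

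Mcm6 held the most E2F words, 3 of them, and its promoter is shown as the example of how the elements are arranged, with E2F words and CCAAT boxes (ATTGG on this strand) in capitals. The first 2 E2F words overlap and read as 1 run of capitals. The 2 words of Mcm5 overlap as well, and only 1 of them is in capitals in the line above.
Mcm6 (chr1:128359706-128359955, minus strand): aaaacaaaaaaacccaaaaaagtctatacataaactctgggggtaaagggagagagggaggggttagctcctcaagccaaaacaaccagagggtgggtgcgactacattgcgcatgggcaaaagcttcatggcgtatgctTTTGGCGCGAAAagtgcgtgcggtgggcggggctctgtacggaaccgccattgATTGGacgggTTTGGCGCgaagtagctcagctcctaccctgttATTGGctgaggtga
Rrm2 and Ung, whose transcripts are the ones that passed the test below, had none of the 4 E2F words in their windows. The bases before the start of each are printed up to the more upstream of the RefSeq and GENCODE M21 starts, with the CCAAT box of Rrm2 in capitals.
Rrm2 (chr12:24708004-24708240, plus strand): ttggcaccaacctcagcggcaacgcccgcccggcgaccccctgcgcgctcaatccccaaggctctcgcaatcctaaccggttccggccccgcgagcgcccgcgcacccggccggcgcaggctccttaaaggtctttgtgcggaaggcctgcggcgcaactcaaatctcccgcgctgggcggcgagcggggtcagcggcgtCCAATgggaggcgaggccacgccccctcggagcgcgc
Ung (chr5:114130185-114130385, plus strand): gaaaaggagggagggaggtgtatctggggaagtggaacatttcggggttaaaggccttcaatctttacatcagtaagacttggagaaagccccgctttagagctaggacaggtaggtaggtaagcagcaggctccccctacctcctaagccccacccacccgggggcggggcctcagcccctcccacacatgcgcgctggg

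The same windows of G2 and mitosis genes are given beside those of the members, with no test between them. Of 34 G2/M genes with a window, 1 held an E2F word (2.94%) and 22 held the CHR (64.7%). The CHR was found in 6 of the 32 members (18.8%), in 20.2% of all genes with a window and in 15.1% of the tested genes with a window. The 6 members were Mcm2, Cdc45, Fen1, Nasp, E2f8 and Wdr76. CCAAT boxes were found in 22 of the 32 members (68.8%) and in 76.5% of the G2/M genes, against 41.1% of all genes with a window. Mcm2, Cdc45 and Nasp held both a CHR and a CCAAT box and no E2F word. E2f8, a repressor of E2F targets, held both G2/M elements and no E2F word: its CHR is the run of capitals in gcgggttaatTTCAAAtcgggggctg (chr7:48881601-48881626, minus strand). A match says only that the letters are there, and a window without one may hold other forms of the motif.

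**Figure D1:**
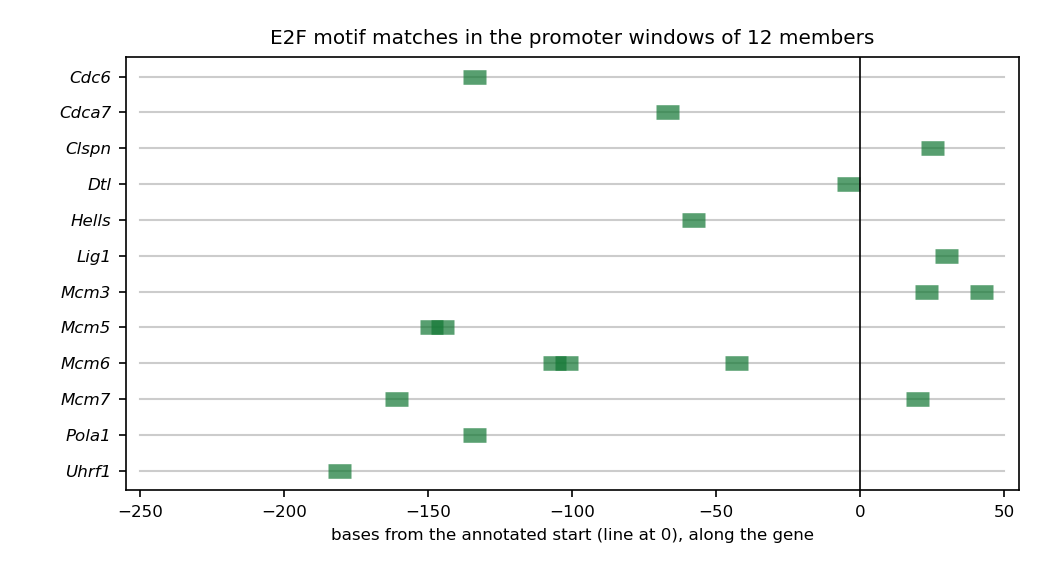
E2F words in the promoter windows of 12 members, by distance in bases from the annotated start (line at 0) along the direction of the gene. Each green box is 1 word of 8 bases and darker boxes are overlapping words; Mcm6 has 3 words, and Mcm3, Mcm5 and Mcm7 have 2 each.

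The expression values are FPKM (fragments per kilobase of a gene's transcript in each 1000000 fragments), and levels of different genes can be compared because they are set per length. Depth recovered from the steps between low values was 23668015 to 28897360 fragments per library, and each tested member had 68 to 7134 fragments in a library. Hemgn itself was at 5.64, 2.96 and 4.68 FPKM in WT replicates 1 to 3 and at 0.755, 0.913 and 1.60 FPKM in Hemgn-/- replicates 1 to 3, all lower than any WT library (log2 fold change -1.37, adjusted p 0.0114 by limma). The libraries went in part against their labelled cell type. HSPC markers were present but low, with Kit at 5.50 to 7.24 FPKM, Ly6a (Sca-1) at 8.27 to 17.3 FPKM and 16 markers summing to 57.0 to 61.5 FPKM in WT and 66.2 to 74.6 FPKM in Hemgn-/- libraries, where 2 of 14 tested rose (Cd34 and Cd48). Here a gene rose or fell when its adjusted p by limma was under 0.05, as for 4.37% (higher) and 2.09% (lower) of all genes tested. Transcripts of 8 secondary granule genes of neutrophils summed to 61694 to 66449 FPKM in WT and 38790 to 40281 FPKM in Hemgn-/- libraries, and 5 of the 8 fell. The 10 genes of B cells, a lineage that the sort was to remove, summed to 1194 to 1256 FPKM in WT and 1404 to 1584 FPKM in Hemgn-/- libraries, and 3 of the 10 rose. The values below are therefore those of a mixture, in which fewer cycling cells and less transcript per cell cannot be told apart.

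All replication genes but Fen1 were detected in every library, and the sums of the 40 members overlapped between the groups. The 40 members summed to 405, 406 and 411 FPKM in WT replicates 1 to 3 and to 408, 385 and 427 FPKM in Hemgn-/- replicates 1 to 3, so the Hemgn-/- libraries lay on both sides of the WT ones. High genes weigh most in these sums: the 6 subunits Mcm2 to Mcm7 gave 137 to 145 FPKM in WT and 145 to 163 FPKM in Hemgn-/- libraries. Among members that were tested, mean levels ran from 0.817 FPKM for Wdr76 to 38.1 FPKM for Mcm6. Mcm6, Rfc2, Mcm3, Slbp, Mcm5 and Rpa2 were the highest, and Gins2, Exo1, Clspn and Wdr76 were near 1 FPKM. Fen1, the flap endonuclease that trims Okazaki fragments, was listed at 0.0349, 0.0161 and 0.0745 FPKM in WT and at 0, 0 and 0.0429 FPKM in Hemgn-/- libraries. It was the only member below the filter of more than 1 FPKM in at least 1 library. Of its exon bases in GENCODE M21, 84.2% are also exonic in other genes, chiefly Gm10143 on the opposite strand. Counting either strand, 577 of 24921 genes (2.32%) have such overlap over more than 50% of their bases. Gins2 was the other member over 50%, with 67.3%, chiefly by Gse1.

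**Figure D2:**
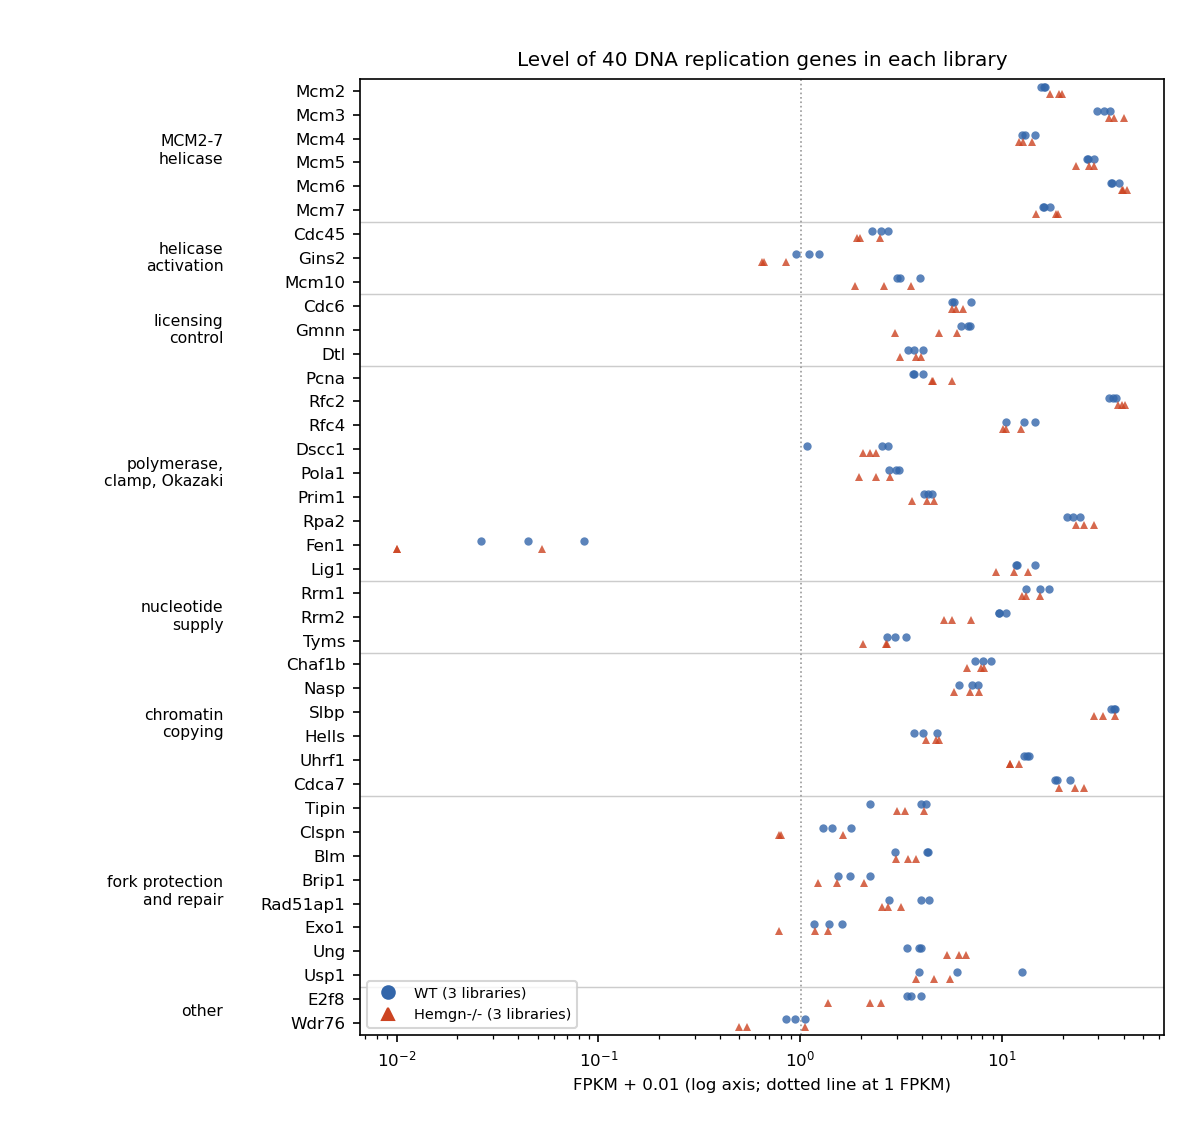
FPKM of the 40 members in each library, grouped by role, on a log axis after adding 0.01 (blue circles, 3 WT libraries; red triangles, 3 Hemgn-/- libraries). For most members the groups interleave, while Rrm2 and E2f8 have all Hemgn-/- libraries to the left of WT and Ung has them to the right.

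Genotypes were compared with limma on log2(FPKM + 1) over the 13739 genes that passed the filter (adding 1 makes the differences of low genes smaller than they are). A positive log2 fold change means higher in Hemgn-/- libraries. Of the 39 members tested, 2 had an adjusted p under 0.05 (5.13%), against 6.46% of all genes tested (4.37% higher and 2.09% lower). Rrm2 fell and Ung rose. The thresholds stated in the methods of the study (p under 0.05 and 1.5-fold) were applied with the fold taken on the log2(FPKM + 1) scale. The count was also 2 members, Rrm2 and E2f8, both lower, against 6.83% of all genes (4.10% higher and 2.74% lower). Ung was 1.47-fold on this scale and so missed the cut, though its mean FPKM was 3.74 in WT and 6.00 in Hemgn-/- libraries. With 0.1 added in place of 1 the count was 3. All 3 Hemgn-/- values lay outside the WT range on the same side for 11 members (28.2%), 5 higher and 6 lower, against 27.4% of all genes (19.2% higher and 8.18% lower). At an unadjusted p under 0.05 there were 3 higher (Ung, Pcna and Mcm2) and 4 lower (Rrm2, E2f8, Gmnn and Uhrf1), against 21.4% of all genes (15.0% higher and 6.46% lower). With higher and lower calls pooled, the shares of members were thus near those of all genes tested. Split by direction they differed. More of all genes were higher than lower by each rule, in FPKM that were not rescaled further between libraries. Median-ratio size factors, an estimate of the shift of each whole library, were 0.961 to 0.975 in WT and 1.03 to 1.04 in Hemgn-/- libraries. The shares by direction after scaling by them are not given here. Of the members, 5 were higher and 6 lower outside the WT range, and 3 and 4 at the unadjusted p. At the study's thresholds both members were lower, and at the adjusted p there was 1 in each direction. This difference in direction was not tested. The median log2 fold change was -0.13 over the members and 0.087 over all genes tested, and 29 of the 39 members lay below the latter. The median over the members was -0.072 when WT replicate 3 was left out and -0.060 when Hemgn-/- replicate 2 was. Leaving out WT replicate 3 or Hemgn-/- replicate 1 raised the count of members outside the WT range to 17 and 18, where 5 values had to separate in place of 6. The share over all genes in those fits is not given here, so these counts cannot be set against the 27.4% above.

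**Figure D3:**
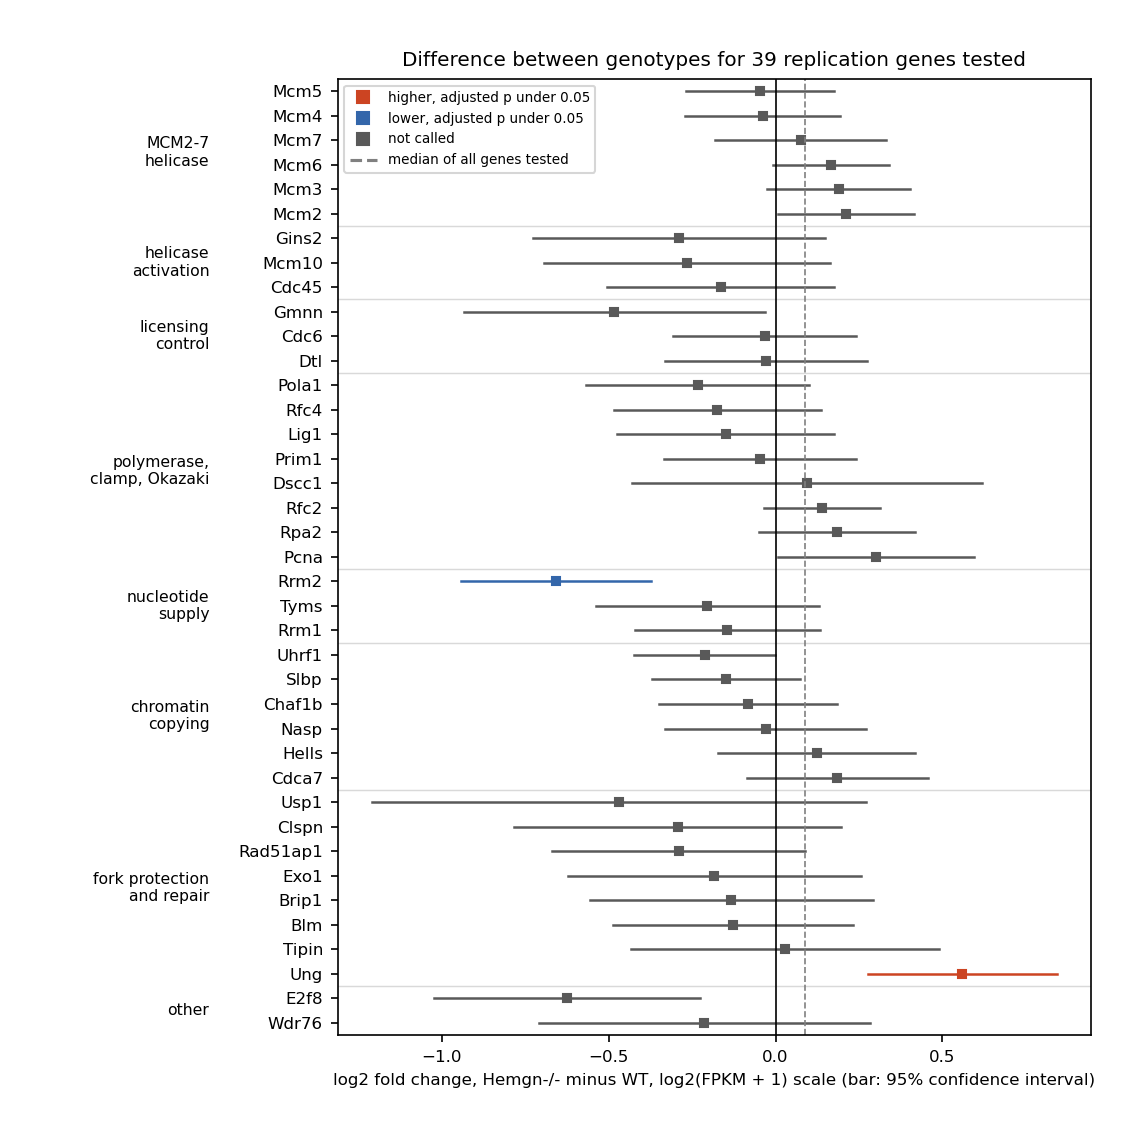
Log2 fold change (Hemgn-/- minus WT, log2(FPKM + 1) scale) of the 39 members tested, by role, with 95% confidence intervals from limma. Rrm2 (blue, -0.66) and Ung (red, 0.56) passed an adjusted p of 0.05, the dashed line is the median of all genes tested (0.087), and most intervals include 0.

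Rrm2 encodes the small subunit of ribonucleotide reductase, whose level limits the supply of deoxynucleotides in S phase. It lies at chr12:24708241-24714146 (GRCm38, ENSMUSG00000020649). It was at 9.62, 9.63 and 10.4 FPKM in WT replicates and at 5.14, 5.64 and 7.04 FPKM in Hemgn-/- replicates. The WT libraries were close to each other, and every Hemgn-/- library was lower than all of them. The means were 9.89 ± 0.456 FPKM in WT and 5.94 ± 0.986 FPKM in Hemgn-/- (SD, n = 3), a log2 fold change of -0.66 (SE 0.126, 95% confidence interval -0.94 to -0.37, adjusted p 0.0188 by limma). The adjusted p was over 0.05 when WT replicate 1, WT replicate 3, Hemgn-/- replicate 1 or Hemgn-/- replicate 2 was left out, and 0.0687 at most, with log2 fold changes from -0.77 to -0.57 in all 6 such fits.

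The other 2 genes of nucleotide supply differed less. Rrm1, the large subunit that pairs with Rrm2, was at 17.0, 15.5 and 13.2 FPKM in WT and at 15.4, 12.5 and 13.1 FPKM in Hemgn-/- libraries. The groups overlapped, and the interval of the log2 fold change ran from -0.42 to 0.13. Tyms, thymidylate synthase, was at 2.69, 3.32 and 2.93 FPKM in WT and at 2.68, 2.04 and 2.65 FPKM in Hemgn-/- libraries. All Hemgn-/- values were below WT, the nearest pair being 2.69 and 2.68 FPKM, and the log2 fold change of -0.20 did not pass the test (adjusted p 0.473 by limma).

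Ung encodes uracil-DNA glycosylase, which removes uracil from newly copied DNA and in B cells also takes part in antibody gene diversification. It lies at chr5:114130386-114139323 (ENSMUSG00000029591). It was at 3.96, 3.88 and 3.38 FPKM in WT and at 5.32, 6.08 and 6.58 FPKM in Hemgn-/- libraries. Every Hemgn-/- library was above all 3 WT libraries. The means were 3.74 ± 0.314 FPKM in WT and 6.00 ± 0.633 FPKM in Hemgn-/- (SD, n = 3), a log2 fold change of 0.56 (SE 0.124, 95% confidence interval 0.28 to 0.84, adjusted p 0.0339 by limma). Leaving out any library but Hemgn-/- replicate 1 took the adjusted p over 0.05, to 0.132 at most without Hemgn-/- replicate 3, with log2 fold changes from 0.50 to 0.63. Genes of several other cell types rose in the same libraries: 3 of 10 of B cells, 4 of 10 of plasmacytoid dendritic cells, 2 of 10 of T and NK cells and 2 of 10 of macrophages and monocytes, where 2 others fell. At the same adjusted threshold 4.37% of all genes tested were higher and 2.09% lower. Within the B cell list 4 genes had log2 fold changes below 0, and Rag1 was lower in every Hemgn-/- library. The part of these cells in the level of Ung was not tested.

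E2f8 had the next lowest fold change after Rrm2. It encodes an atypical E2F that represses E2F targets late in S phase, and it lies at chr7:48866429-48881596 (ENSMUSG00000046179). It was at 3.94, 3.51 and 3.38 FPKM in WT and at 1.37, 2.50 and 2.22 FPKM in Hemgn-/- libraries. The groups did not overlap, and Hemgn-/- replicate 1 was the lowest. The log2 fold change of -0.62 (SE 0.175, adjusted p 0.0765 by limma) missed the adjusted threshold, and with limma's voom on the recovered fragments it passed (log2 fold change -0.97, adjusted p 0.0259). Wdr76, listed beside it, was at 0.841 to 1.05 FPKM in WT and at 0.485 to 1.05 FPKM in Hemgn-/- libraries.

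**Figure D4:**
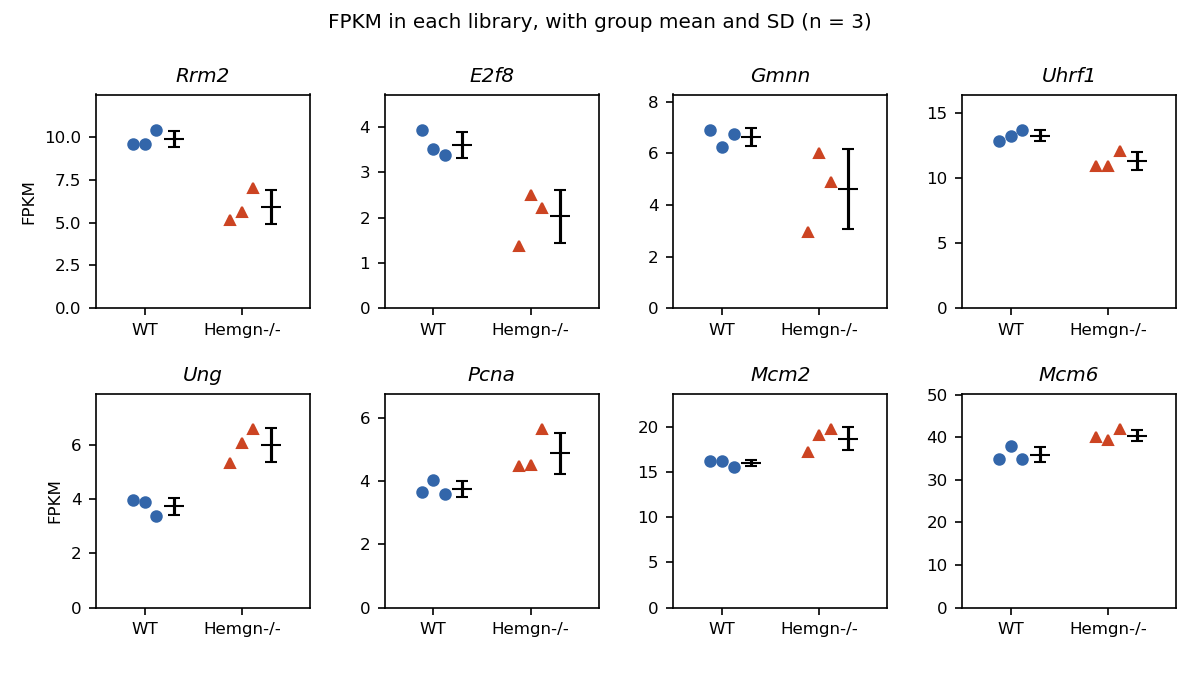
FPKM of 8 members in each library (blue circles, WT; red triangles, Hemgn-/-), with the mean and SD of each group (n = 3) beside the points and every axis from 0. In the upper row the Hemgn-/- libraries lie below all WT libraries and in the lower row above them; Rrm2 and Ung passed an adjusted p of 0.05.

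The 6 subunits of the Mcm helicase, which unwinds DNA ahead of the fork, had mean levels from 13.2 FPKM for Mcm4 to 38.1 FPKM for Mcm6. None passed the adjusted threshold. Mcm2 was at 16.2, 16.3 and 15.6 FPKM in WT and at 17.3, 19.2 and 19.8 FPKM in Hemgn-/- libraries. Mcm6 was at 34.8, 37.9 and 35.0 FPKM in WT and at 39.9, 39.3 and 41.8 FPKM in Hemgn-/- libraries. For both genes every Hemgn-/- library was above WT, with log2 fold changes of 0.21 for Mcm2 and 0.17 for Mcm6 (adjusted p 0.215 and 0.254 by limma). Mcm3, Mcm4, Mcm5 and Mcm7 overlapped between the groups, with log2 fold changes from -0.047 for Mcm5 to 0.19 for Mcm3. The 95% intervals of the 6 genes lay between -0.27 and 0.41. The median log2 fold change of the 6 was 0.12, which is 0.033 above that of all genes. This distance was not stable: it was 0.088 with no filter, and leaving out a library took it to 0.089 (Hemgn-/- replicate 1), 0.0081 (WT replicate 1) and -0.0077 (Hemgn-/- replicate 3).

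The genes that switch the helicase on were low, with log2 fold changes from -0.29 to -0.16. Gins2, a GINS subunit, was at 0.938, 1.10 and 1.22 FPKM in WT and at 0.649, 0.634 and 0.836 FPKM in Hemgn-/- libraries, all below WT (log2 fold change -0.29, adjusted p 0.438 by limma). Much of this gene's sequence is shared with Gse1, and whether the counting used strand is not given in the sources used here. Mcm10, which helps to assemble the active helicase, was at 3.11, 3.90 and 3.01 FPKM in WT and at 3.53, 1.87 and 2.58 FPKM in Hemgn-/- libraries. These groups overlapped because Hemgn-/- replicate 1 was as high as WT. Cdc45, which joins GINS on the helicase, was at 2.25 to 2.71 FPKM in WT and at 1.89 to 2.49 FPKM in Hemgn-/- libraries, and none of the 3 genes passed the test.

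Licensing of origins is held to 1 round per cycle by geminin (Gmnn), which blocks the loading factor Cdt1, and by Dtl, which targets Cdt1 for destruction. Gmnn was at 6.89, 6.24 and 6.75 FPKM in WT and at 2.94, 6.00 and 4.89 FPKM in Hemgn-/- libraries. The 3 Hemgn-/- libraries were below WT, but replicate 2 by only a small margin and replicate 1 by far, and the log2 fold change of -0.48 (SE 0.199) had an adjusted p of 0.204 by limma. Dtl was at 3.40 to 4.04 FPKM in WT and at 3.12 to 3.96 FPKM in Hemgn-/- libraries. Cdc6, the loading factor, was at 7.05, 5.62 and 5.78 FPKM in WT and at 5.67, 5.87 and 6.36 FPKM in Hemgn-/- libraries, with complete overlap of the Hemgn-/- values and a log2 fold change of -0.032, which was 0.049 with rescaling to the same FPKM total.

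Among the 8 tested genes of polymerases, clamp and Okazaki fragments none passed the adjusted threshold. Pcna, the sliding clamp, was at 3.66, 4.05 and 3.59 FPKM in WT and at 4.49, 4.54 and 5.65 FPKM in Hemgn-/- libraries. Rfc2, a subunit of the clamp loader, was at 35.5, 33.9 and 36.8 FPKM in WT and at 40.7, 37.4 and 39.2 FPKM in Hemgn-/- libraries. Both were higher in every Hemgn-/- library, with log2 fold changes of 0.30 (SE 0.129, adjusted p 0.222 by limma) and 0.14 (SE 0.0764, adjusted p 0.341 by limma). Pcna has processed pseudogenes, of which the one in the table, Pcna-ps2, was at 0 in 5 libraries and at 0.0275 FPKM in Hemgn-/- replicate 3. The other 6 genes overlapped between the groups. Rpa2, which coats single-stranded DNA, had a log2 fold change of 0.18, Dscc1 of an alternative clamp loader 0.094, the primase subunit Prim1 -0.047, the ligase Lig1 -0.15, the clamp loader subunit Rfc4 -0.17 and the catalytic subunit Pola1 of the priming polymerase -0.23. Dscc1 in WT rested on 1 low library, at 2.54, 2.71 and 1.08 FPKM in replicates 1 to 3.

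Genes that rebuild chromatin behind the fork gave a median log2 fold change of -0.056 over 6 members, and none passed the adjusted threshold. Uhrf1, which recognises hemimethylated DNA and brings the maintenance methyltransferase to it, was at 12.9, 13.2 and 13.7 FPKM in WT and at 10.9, 10.9 and 12.1 FPKM in Hemgn-/- libraries. All Hemgn-/- values were below WT and the replicates were tight, but the difference was small (log2 fold change -0.21, SE 0.0924, adjusted p 0.229 by limma). Slbp, which binds the stem-loop of histone mRNAs, was at 36.3, 34.5 and 35.9 FPKM in WT and at 36.2, 28.5 and 31.8 FPKM in Hemgn-/- libraries. Replicate 1 of Hemgn-/- was within the WT range and the other 2 below it. The chaperone subunit Chaf1b and the histone chaperone Nasp had log2 fold changes of -0.083 and -0.030, and the remodeller Hells and its partner Cdca7 had 0.12 and 0.18, with overlapping groups for all 4.

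Apart from Ung, the genes of fork protection and repair did not pass the test, and their groups overlapped. Usp1, a deubiquitinase that acts on Pcna, was at 5.98, 12.5 and 3.86 FPKM in WT and at 5.51, 3.74 and 4.60 FPKM in Hemgn-/- libraries. Its log2 fold change of -0.47 rested on WT replicate 2 and was -0.064 without it. The helicases Blm and Brip1, the checkpoint adaptor Clspn, the exonuclease Exo1 and the recombination factor Rad51ap1 had log2 fold changes from -0.29 to -0.13, and Tipin of the fork protection complex had 0.028. Clspn was at 1.29, 1.78 and 1.42 FPKM in WT and at 0.776, 1.62 and 0.795 FPKM in Hemgn-/- libraries, so Hemgn-/- replicate 2 lay among the WT values.

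No library was the highest or the lowest for most members. Hemgn-/- replicate 2 was the lowest of the 6 libraries for 14 of the 39 members and the highest for 0, while Hemgn-/- replicate 3 was the highest for 9 and the lowest for 2. WT replicate 3 was the highest for 10 members, Cdc45, Gins2, Rrm2 and Uhrf1 among them, and the lowest for 4. The median log2 fold change was -0.031 over the 12 members with an E2F word (5 above 0 and 7 below, from -0.29 to 0.19), and -0.14 over the 19 tested members with a window and no word (4 above 0 and 15 below, from -0.66 to 0.56). The lowest and the highest fold changes of the members, Rrm2 and Ung, both belong to the group without a word. This comparison is a description and carries no test.

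The rest of the replication machinery was read from 91 further genes listed by role, of which 86 were tested. Among the 86, 5 passed the adjusted threshold (5.81%, against 6.46% of all genes), 4 higher and 1 lower, and the median log2 fold change was 0.038. Of the nucleotide supply genes, Shmt2 (mitochondrial one-carbon metabolism) rose from 22.3 ± 2.71 to 32.2 ± 2.25 FPKM, Samhd1 (which degrades deoxynucleotides) from 79.6 ± 3.07 to 107 ± 7.67 FPKM and Dck (deoxycytidine salvage) from 69.5 ± 4.03 to 86.1 ± 3.32 FPKM (SD, n = 3). These 3 salvage, folate and turnover genes rose while Rrm2 fell. Chtf8, a partner of the member Dscc1 in the alternative clamp loader, rose from 19.0 ± 2.24 to 28.0 ± 0.711 FPKM (SD, n = 3). Of its exon bases, 91.8% are also in a second annotated gene of the same symbol on the same strand, so how its reads were divided is uncertain. Asf1b, a histone chaperone of S phase, was at 10.4, 7.25 and 12.6 FPKM in WT and at 5.14, 5.85 and 5.49 FPKM in Hemgn-/- libraries, and fell (log2 fold change -0.74, adjusted p 0.0422 by limma). Gins3, a further GINS subunit, had a log2 fold change of -0.58 (adjusted p 0.0725 by limma), Ccna2, the cyclin A of S and G2 phase, -0.41 (0.153) and Cdca7l, a relative of the member Cdca7, 0.51 (0.0992). Leaving out 1 library took the count of 5 to 2 for WT replicate 1, to 1 for WT replicate 3 or Hemgn-/- replicate 2, and to 0 for Hemgn-/- replicate 3.

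The genes of G2 and mitosis are the next step of the cell cycle and are given beside those of replication. Their list, too, was chosen with earlier results of these data known. Of 40 G2/M genes tested with limma 23 fell at the adjusted threshold (57.5%, against 2.09% of all genes lower) and 0 rose, also at an unadjusted p under 0.05, and their median log2 fold change was -0.61. Cdc20, which activates the anaphase-promoting complex, went from 70.7 ± 3.37 to 36.3 ± 2.47 FPKM, Ube2c, its ubiquitin-conjugating enzyme, from 27.9 ± 2.45 to 12.4 ± 0.992 FPKM, and the spindle protein Nusap1 from 24.4 ± 1.75 to 12.1 ± 1.57 FPKM (SD, n = 3). Cks2 had the highest log2 fold change of the list, -0.091. The 40 genes summed to 531 to 561 FPKM in WT and to 325 to 335 FPKM in Hemgn-/- libraries, without overlap, whereas the sums of the 40 replication genes overlapped. Such sums are set mostly by the highest genes. Of the 39 members tested, 27 had log2 fold changes below 0 and 12 above. No test was made of the difference between the lists, and the count was 13 without WT replicate 1 and 14 without Hemgn-/- replicate 3. Transcripts of granulocyte precursors moved in the direction of the G2/M genes, summing over 8 genes to 801 to 868 FPKM in WT and 553 to 602 FPKM in Hemgn-/- libraries with 4 of 8 lower, and so did those of 15 erythroid genes, at 513 to 601 and 81.3 to 104 FPKM with 5 of 12 tested lower. The 5 were the globins Hba-a1, Hba-a2, Hbb-bs and Hbb-bt and the heme enzyme Alas2, while Car1, Car2, Klf1, Gata1, Epor and Tfrc had log2 fold changes from -0.10 to 0.13. Their part in the levels of Rrm2, E2f8 and Asf1b was not tested.

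**Figure D5:**
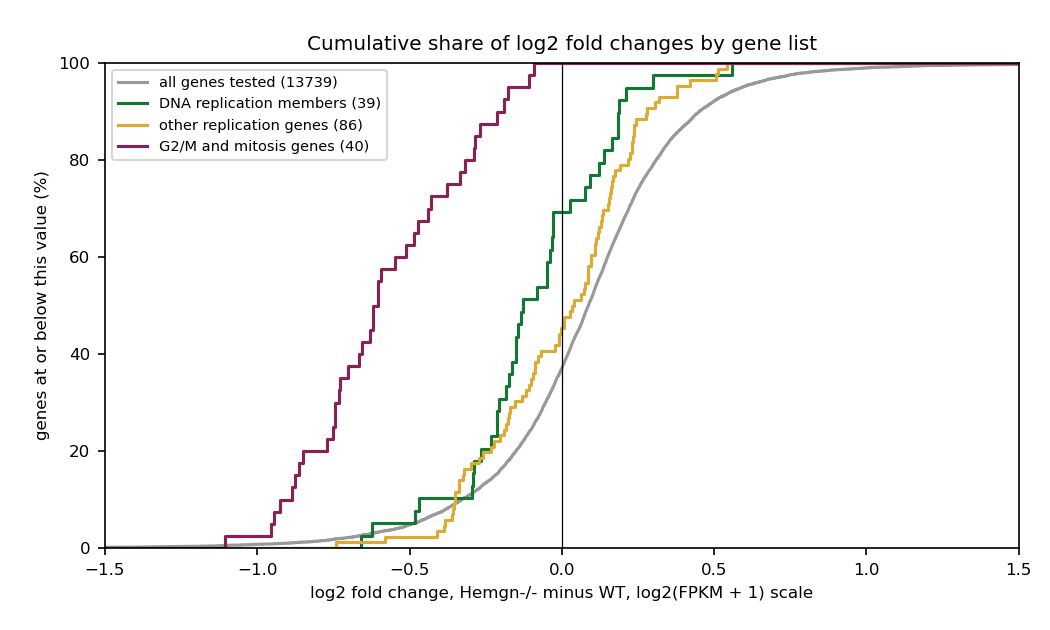
Cumulative share of genes (percent) at or below each log2 fold change (Hemgn-/- minus WT, log2(FPKM + 1) scale, shown from -1.5 to 1.5) for 39 members (green), 86 other replication genes (yellow), 40 G2/M genes (purple) and all 13739 genes tested (grey). The medians are -0.13, 0.038, -0.61 and 0.087 in this order.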

How the data were processed

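The authors deposited FPKM values per gene with 1 column for each of the 6 libraries, and no column was left unmapped (0). The columns of the Hemgn-/- group carry other names than the sample titles, and were matched by genotype and replicate number. The submitters' processing notes name Bowtie2 2.2.3, HISAT2 2.1.0, TopHat2, HTSeq 0.6.0 and GRCm38, with no role or order; whether strand was used is not given in the sources used here. Of 24965 identifiers, 24921 matched GENCODE M21, which gave symbols, exon lengths and coordinates. In 95.7% of the 13472 genes with at most 100 fragments, values came out as whole fragments within 0.05 in all libraries, which gave the depth. Fragments of amplified cDNA are not independent molecules, and a member with 68 fragments is less precise than one with 7134.

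A gene was tested when any library had more than 1 FPKM, on log2(FPKM + 1), with limma 3.58.1 in R 4.3.3 (eBayes with a trend, no covariate, two-sided, Benjamini-Hochberg over all 13739 genes). With 3 libraries per group an exact permutation test cannot go below p = 0.1, so no exact test of single genes is given. Values in every library are given for members with an adjusted or unadjusted p under 0.05, members whose groups do not overlap, the 3 highest and 3 lowest fold changes and the highest member of each role. Of other replication genes those called and the 3 highest and 3 lowest are named, and of G2/M genes the 3 lowest and the highest. Levels of Clspn, Dscc1 and Fen1 in every library were added after their values were seen. The members and lists were chosen with earlier results of these data known.

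The 15 alternatives were a pseudocount of 0.1, no filter, a mean FPKM of at least 1, quantile normalization, median-ratio scaling, equal FPKM totals, a block for the replicate number, eBayes with no trend, voom on recovered fragments, and leaving out each library. In simulated data with 13398 genes tested, 98 of 189 genes changed 2-fold were called, 87 of 107 of those above 5 FPKM, and 5 of 13209 unchanged genes. No smaller change and no shift of a whole group was simulated. These counts therefore do not say how often changes as small as those of the members would be called. Python 3.11.15 with pandas 2.3.3, numpy 2.4.6 and matplotlib 3.10.9 was used for the other steps.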

Additional observations from a re-analysis of the deposited data

How the results depend on the processing

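Rrm2 and Ung kept their direction in all 15 alternatives, with log2 fold changes of -0.85 to -0.57 for Rrm2 (adjusted p 0.0108 to 0.0687) and 0.47 to 0.71 for Ung (0.0176 to 0.132). Of the members, 0 passed the adjusted threshold with no filter and with eBayes without a trend, 1 (Rrm2) with median-ratio scaling and with quantile normalization, 3 with voom (E2f8 added), and 0 to 1 when a library was left out, where fewer samples were fitted. At the study's thresholds voom called 5 members, and leaving out a library gave 1 to 3. The members outside the WT range numbered 10 with median-ratio scaling and 14 to 18 when a library was left out. No share over all genes in those fits is given to set beside them. The median over the members was -0.19 with median-ratio scaling, -0.064 with rescaling to the same FPKM total, -0.21 with quantile normalization, -0.25 with voom and -0.13 to -0.060 when a library was left out. Relative to the median of all genes it was -0.21, -0.25, -0.22 and -0.26 with those 4 settings.

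Of the other replication genes, 2 were called with no filter, 3 with median-ratio scaling, 0 with eBayes without a trend and 0 to 4 when a library was left out. The G2/M count was 13 to 20 when a library was left out. Cdc6 had a log2 fold change of 0.049 with rescaling to the same FPKM total and of -0.085 to 0.056 when a library was left out (above 0 without WT replicate 1), and Cks2 of -0.21 to 0.13 (above 0 without Hemgn-/- replicate 3). Hemgn had an adjusted p of 0.0613 with no filter (log2 fold change -1.37) and 0.0503 without WT replicate 3 (-1.32), and its log2 fold change was -1.58 to -1.20 when a library was left out. The medians of the licensing and chromatin groups were 0.046 and 0.023 with rescaling, and that of the polymerase group was -0.047 with median-ratio scaling. The causes were not tested.

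Whether the replicate numbers pair the libraries is not known from the labels. Deviations of same-numbered libraries had correlations of -0.0428, -0.00936 and 0.0111. These show no shared deviation but cannot tell whether such libraries were prepared together. With the replicate number as a block, 1 member (Rrm2) was called. Tested members had as few as 68 fragments in a library. Wdr76, the lowest of them on average, had a 95% interval of -0.71 to 0.28, and Usp1 at 6.03 FPKM a wider one of -1.21 to 0.27, so the interval also holds spread between libraries.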
